A study of Mus musculus with 3 samples.

Results

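Astrocyte genes were followed in pooled hippocampal RNA of 3 groups of male C57BL/6J mice aged 11 weeks. The list held 35 genes chosen from textbook markers and functions of astrocytes. It and the further lists below were chosen with earlier results of these data known, so counts set beside array shares only describe these pools. A gene was taken as measured when its symbol stood in the annotation of the array. Of the 35 astrocyte genes, 34 were measured, among 19504 genes in all, with 1 probe set for each. Ppap2b was found under its current symbol Plpp3, and Glul was not analysed here.

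Mice of the vehicle group (NV, 3 mice pooled) were never restrained and received PBS into the lateral ventricle. The deposited title of that pool speaks of vesicles, but its source note names PBS and the study names vehicle. The restraint-stressed mice of the sedentary EV group (RS, 4 mice pooled) were restrained for 6 h per day over 3 weeks, and then received 20 μg of extracellular vesicles (EVs) from serum of donors kept without a running wheel. Those of the exercise EV group (RE, 4 mice pooled) were restrained in the same way and received 20 μg of EVs from donors that had a wheel. Tissue was taken 3 days after injection, and 1 Affymetrix whole-transcript array was run for each pool. RS and NV therefore differ by restraint as well as by what was injected, and these cannot be told apart, whereas RE and RS differ in the donors of the EVs. A single array stands for each group, which leaves no replicate error and no p-value, so the values describe these 3 pools.

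Astrocytes take up glutamate and potassium released by neurons, supply lactate and lipids, and cover capillaries with endfeet rich in water channels. They are coupled to each other by gap junctions. In injury and inflammation they become reactive, with more intermediate filament protein, and astrocytes of different brain regions differ in part of their genes.

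The RNA carried a clear astrocyte signal in all 3 pools. The values are log2 signals, so a difference of 1 is a 2-fold change, and a background level of 6.01 was set from 1450 olfactory, vomeronasal and taste receptor genes. All 8 defining markers, which were Gfap, Aqp4, Aldh1l1, Slc1a2, Slc1a3, Gja1, Gjb6 and Aldoc, lay above that level in every array. Among the 34 genes only Id3, an inhibitor of transcription induced by BMP signaling, lay below it in every array, with 5.54 in the NV pool, 5.74 in RS and 5.63 in the RE pool. In bulk RNA, fewer astrocytes and less RNA per astrocyte cannot be told apart. The pools also differed in genes of other cells. Of 12 dentate gyrus granule cell genes measured, 7 were higher and 0 lower by 2-fold in RS than in NV, and of 11 oligodendrocyte genes 5 were higher and 0 lower. Of 12 thalamus and habenula genes, 1 was higher and 3 were lower, and of 10 genes of fibroblasts and meninges 0 were higher and 4 lower. Among the latter Ptgds, a prostaglandin D synthase also made by other brain cells, had 14.39 in the NV pool, 12.72 in RS and 13.64 in the RE pool, and the proteoglycan gene Dcn had 13.96, 12.83 and 13.89. Of 9 choroid plexus genes 2 were higher and 3 lower, with 5.78, 7.85 and 8.20 for Ttr, the carrier of thyroid hormone, and 6.83, 4.43 and 4.38 for the homeobox gene Otx2. Over all genes measured 3.52% were higher and 4.29% lower by 2-fold for RS over NV, and these shares stand beside each list's count. The part of these cells in the differences of astrocyte genes was not tested.

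**Figure D1:**
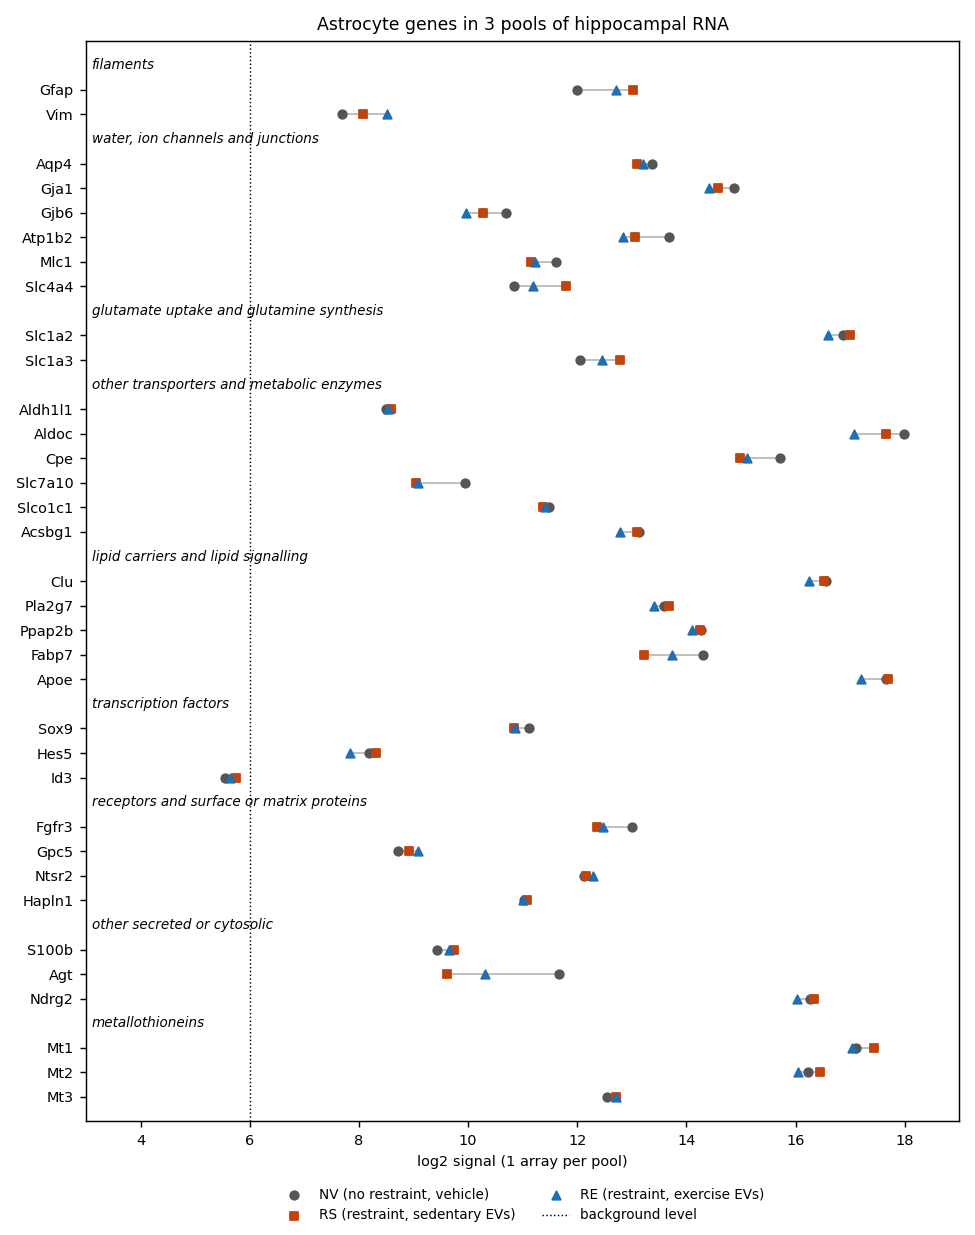
Log2 signal (horizontal axis) of 34 astrocyte genes (rows, ordered by role) in the NV, RS and RE pools, with 1 array per pool and the background level of 6.01 as a dotted line. Agt spans the widest range, from 9.61 in RS to 11.67 in NV.

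Between RS and NV the astrocyte genes were spread much like the genes of the whole array. Of the 34 genes, 25 (73.5%) differed by less than 0.5 on the log2 scale, as 68.5% of all genes did. Another 6 (17.6%) differed by 0.5 to under 1, beside 23.7% of all genes, and 3 by 1 or more. Gfap was higher by at least 2-fold, and Agt and Fabp7 were lower. This makes 1 higher gene where 3.52% of all genes were higher, and 2 lower genes where 4.29% of all genes were lower. In both directions together 8.8% of the astrocyte genes passed the 2-fold threshold and 7.80% of all genes did, so their share lay near that of the array. Of genes above background in either array 9.02% passed, and of the olfactory, vomeronasal and taste receptor genes 11.0% did. The median difference was 0.03 over the astrocyte genes, with 18 above 0 and 16 below, and it turned to -0.11 once a lowess trend on signal was removed. Over all genes the median was -0.01, and over genes above background it was 0.07.

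Between RE and RS no astrocyte gene reached 2-fold in either direction. On the whole array 0.441% of genes were higher and 0.723% lower, or 1.16% together. The differences ran from -0.60 to 0.70, with 12 above 0 and 22 below, where 58.5% of all genes were below. Their median was -0.13 beside -0.07 for all genes. Between RE and NV, Agt alone was lower by at least 2-fold and no gene was higher. On the array 2.87% of genes were higher and 5.12% lower in this comparison, 7.98% together, beside 2.9% of the astrocyte genes. Their median was -0.21 beside -0.06 for all genes and 0.01 for genes above background in either array. Of the 34 astrocyte genes 24 were below 0, beside 55.4% of all genes and 48.9% of the genes above background. The comparisons share arrays, so they are not independent of each other.

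**Figure D2:**
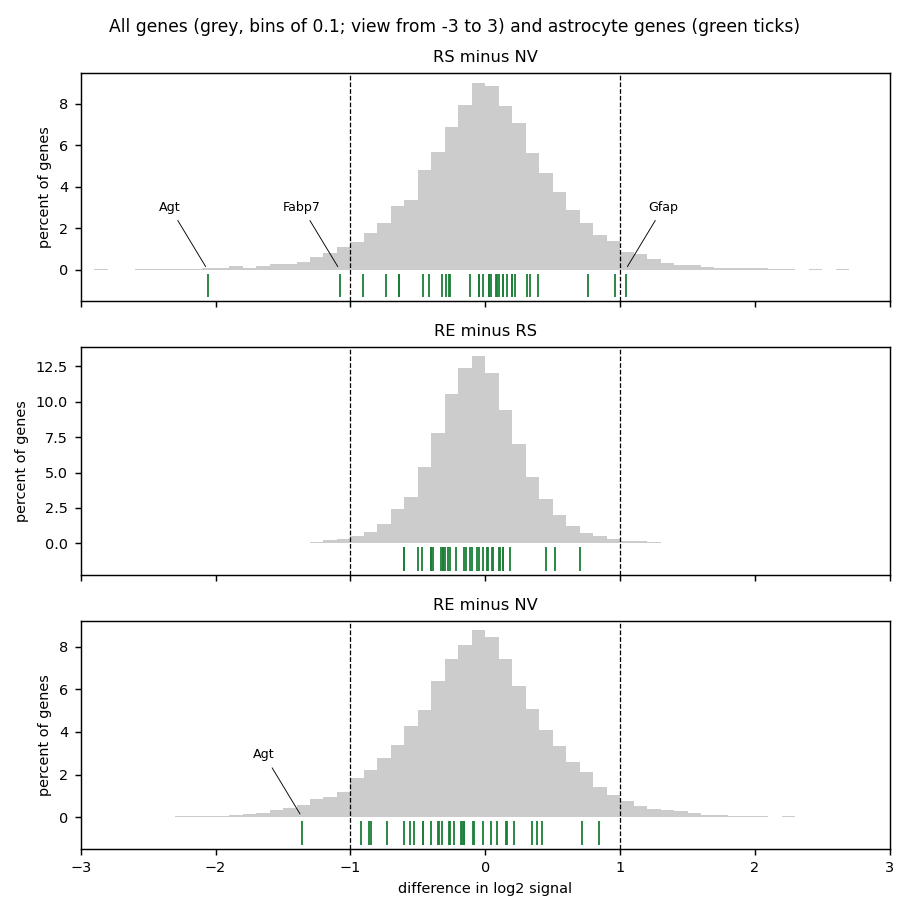
Percent of all 19504 genes (vertical axis, grey) by difference in log2 signal (horizontal axis, bins of 0.1) in the 3 comparisons, with each astrocyte gene as a green tick and the 2-fold threshold as dashed lines. Gfap, Agt and Fabp7 lie beyond the threshold in RS minus NV, none does in RE minus RS, and Agt does in RE minus NV.

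The promoters of the 3 genes past the threshold are shown with that of Mt2, a metallothionein gene described further on. Each is the 250 bases before the transcription start in RefSeq on GRCm38.p6, read 5′ to 3′. Capitals mark the STAT site TTCNNNGAA in Gfap, Agt and Fabp7, and the metal response element core TGCNCNC in Mt2, on either strand. The windows lie at chr11:102897201-102897450, minus strand for Gfap, chr8:124569707-124569956, minus strand for Agt, chr10:57784673-57784922, plus strand for Fabp7 and chr8:94172368-94172617, plus strand for Mt2.
Gfap: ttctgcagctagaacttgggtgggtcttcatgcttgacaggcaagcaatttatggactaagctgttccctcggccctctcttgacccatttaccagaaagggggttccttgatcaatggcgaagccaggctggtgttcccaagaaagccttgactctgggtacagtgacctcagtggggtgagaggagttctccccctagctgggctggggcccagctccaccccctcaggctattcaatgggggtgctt
Agt: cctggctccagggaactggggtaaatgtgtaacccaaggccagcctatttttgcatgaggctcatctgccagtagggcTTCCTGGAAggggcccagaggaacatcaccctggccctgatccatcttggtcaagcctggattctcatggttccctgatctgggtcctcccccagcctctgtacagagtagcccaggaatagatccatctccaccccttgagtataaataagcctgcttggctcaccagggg
Fabp7: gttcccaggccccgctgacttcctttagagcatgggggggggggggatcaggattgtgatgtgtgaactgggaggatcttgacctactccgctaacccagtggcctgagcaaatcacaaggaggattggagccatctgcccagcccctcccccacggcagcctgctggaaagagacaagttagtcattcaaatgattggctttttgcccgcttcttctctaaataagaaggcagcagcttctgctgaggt
Mt2: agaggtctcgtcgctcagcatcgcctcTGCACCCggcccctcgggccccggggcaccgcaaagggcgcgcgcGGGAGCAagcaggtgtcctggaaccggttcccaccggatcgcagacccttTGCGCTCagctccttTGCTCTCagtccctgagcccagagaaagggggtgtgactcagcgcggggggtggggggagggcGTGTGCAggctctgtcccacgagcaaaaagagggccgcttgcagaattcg
The Agt window holds 1 STAT site, whose first base lies at -172 from the start. The windows of Gfap and Fabp7 hold no STAT site. In all, 36 windows of 29 astrocyte genes were searched, and 6 of the windows held the STAT site. It was found in 7.02% of 32851 windows of the same length. Some genes have several windows, and Aqp4, Atp1b2, Clu, Cpe and Sox9 have none here. The astrocyte windows leave out 1 chromosome that the 32851 windows include. The Mt2 window holds 5 metal response element cores, the most of the 3 metallothionein windows. Of all windows 0.344% hold 5 or more, which only gives the scale, since the highest of 3 is set beside it. The windows of Mt1 and Mt3 hold 1 each. Bases outside the windows, also those past the RefSeq start, were not searched, so these counts do not cover whole promoters. N stands for any base, so TGCNCNC is a loose form of that core. Windows with at least 1 core were common, with 17 of 36 among the astrocyte genes and 44.41% of all. A glucocorticoid response element (GNACA and TGTNC with NNN between) was found in 1 astrocyte window, that of Mt1, and in 0.39% of all windows, and the NFI palindrome (TTGGC and GCCAA with NNNNN between) in 0 of 36 and 0.04%. These are matches of letters, not measured binding sites.

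Where 3 values are given without labels, they stand in the order NV, RS and RE. The filament gene Gfap, which encodes the protein that defines fibrous and reactive astrocytes, gave a log2 signal of 11.99 in the NV pool, 13.02 in RS and 12.71 in the RE pool. It was higher in both restrained pools, by 1.04 in RS, a fold of 2.05, and by 0.72 in RE. With the lowess trend removed the first of these was 0.92, under the threshold. Vim, a filament protein of reactive astrocytes that endothelial and precursor cells also make, had 7.68 in the NV pool, 8.07 in RS and 8.52 in the RE pool. Vim was thus highest in the pool given exercise EVs and stayed below 2-fold, with a difference of 0.84 between RE and NV.

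The largest difference of any astrocyte gene was that of Agt. Agt encodes angiotensinogen, which astrocytes make in the brain and which is abundant in astrocytes of the diencephalon and brainstem. Its log2 signal was 11.67 in NV and lower in both restrained pools, 9.61 in RS and 10.31 in RE. RS was lower than NV by 4.17-fold, a log2 difference of -2.06, and RE was lower than NV by 2.56-fold, or -1.36. RE lay between the other pools, 0.70 above RS, which was the largest difference between RE and RS among the 34 genes. Only 0.456% of all genes differed more between RS and NV than Agt did, and 5.37% differed more between RE and RS.

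Fabp7, the brain fatty acid binding protein of astrocytes and radial glia, showed the same order of pools as Agt. Its log2 signal was 14.30 in the NV pool, 13.22 in RS and 13.73 in the RE pool. The difference was -1.08 between RS and NV, a fold of 2.12, and 0.52 between RE and RS. The other lipid genes differed by less than 0.1 between NV and RS. Apoe, the main lipid carrier of the brain, had 17.66 in the NV pool, 17.70 in RS and 17.20 in the RE pool, and the secreted chaperone Clu had 16.56, 16.52 and 16.24. Both were lowest in RE. With the lowess trend removed, RE minus RS went from -0.50 to -0.15 for Apoe and from -0.28 to 0.01 for Clu. Pla2g7, which cleaves platelet-activating factor, and the lipid phosphatase Ppap2b had differences of 0.09 and -0.02 between RS and NV.

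Glutamate transporters were the highest in RS. Slc1a3, which encodes the transporter GLAST, gave a log2 signal of 12.04 in the NV pool, 12.79 in RS and 12.46 in the RE pool, and its difference of 0.76 between RS and NV, a fold of 1.69, stayed under the threshold. Slc1a2, which encodes GLT-1, the main glutamate transporter of the forebrain, had 16.87 in the NV pool, 17.00 in RS and 16.60 in the RE pool. The differences of Slc1a2 were smaller than those of Slc1a3 between RS and NV, at 0.13. Both genes were lower in RE than in RS, with -0.40 for Slc1a2 and -0.33 for Slc1a3. Once the lowess trend on signal was removed, these became -0.09 and -0.24.

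The 6 genes of water, ions and junctions did not follow one direction. Slc4a4, a sodium bicarbonate cotransporter, was just under 2-fold in RS against NV, with 10.84 in the NV pool, 11.79 in RS and 11.19 in the RE pool, and a difference of 0.96. The other 5 were lower in RS than in NV, and none reached 2-fold. Atp1b2, a beta subunit of the sodium pump known as AMOG, had 13.68 in the NV pool, 13.05 in RS and 12.83 in the RE pool. Gjb6 and Gja1 encode the connexins of astrocyte gap junctions, and had 10.69, 10.27 and 9.96 for Gjb6 and 14.87, 14.58 and 14.41 for Gja1. Both connexin genes were thus highest in NV and lowest in RE, with differences of -0.73 and -0.46 between RE and NV. Aqp4, the water channel of endfeet, had 13.36, 13.10 and 13.20, and the endfoot membrane protein gene Mlc1 had 11.61, 11.15 and 11.22. The 3 values of Aqp4 lay within 0.26 of each other.

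Among the other transporters and the metabolic enzymes, Slc7a10, a transporter of small neutral amino acids such as glycine and D-serine, had the largest difference between RS and NV. Its log2 signal was 9.95 in the NV pool, 9.04 in RS and 9.09 in the RE pool, so that both restrained pools were lower, with differences from NV of -0.91 and -0.86. The first became -1.03, past the threshold, with the lowess trend removed. Cpe, carboxypeptidase E, which neurons also express, had 15.71, 14.98 and 15.11, again lower in both restrained pools. Aldoc, the brain aldolase of glycolysis, was instead lowest in RE, with 17.98 in the NV pool, 17.66 in RS and 17.06 in the RE pool. RE minus RS was -0.60 for Aldoc, which was exceeded in size by 9.31% of all genes. Removal of the lowess trend brought this difference to -0.25. Aldh1l1, a folate enzyme used as a general astrocyte marker, had 8.49, 8.59 and 8.53 and was nearly level across the pools. Slco1c1, a thyroid hormone transporter, and Acsbg1, an acyl-CoA synthetase, had differences of -0.11 and -0.05 between RS and NV.

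Transcription factors and surface proteins of astrocytes all stayed below 2-fold. Sox9, a transcription factor of astrocyte fate, gave a log2 signal of 11.11 in the NV pool, 10.84 in RS and 10.85 in the RE pool. Hes5, a target of Notch signaling, had 8.18, 8.31 and 7.84. Fgfr3, a growth factor receptor of astrocytes, had 13.00, 12.36 and 12.47, and its difference between RS and NV was -0.64. Ntsr2, a neurotensin receptor, differed by 0.03 between RS and NV, as did Hapln1, a link protein of the perineuronal matrix, and the glypican gene Gpc5 differed by 0.20. The calcium-binding protein gene S100b had 9.43, 9.74 and 9.64, and Ndrg2, a marker of mature astrocytes, had 16.26, 16.34 and 16.03.

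The metallothionein genes encode small proteins that bind zinc and copper, and Mt1 and Mt2 are known to be induced by metals and by glucocorticoids. Mt1 gave a log2 signal of 17.10 in the NV pool, 17.43 in RS and 17.03 in the RE pool. Mt2, whose RefSeq start lies 6471 bases from that of Mt1 on chromosome 8, had 16.22, 16.44 and 16.05. The pools had the same order for both genes, with RS highest, and the differences between RE and RS were -0.40 and -0.39. These came to -0.06 and -0.11 with the lowess trend removed. Mt3, the metallothionein of brain, had 12.55, 12.71 and 12.70, with a difference of -0.02 between RE and RS. None of the 3 reached 2-fold. Between RS and NV, 14 glucocorticoid response genes, which include Mt1 and Mt2, had a median of 0.27. Of the 14, 1 reached 2-fold upward and 0 downward, which was 7.1% beside 7.80% of all genes. That gene was Zbtb16, a zinc finger factor, with 11.47 in the NV pool, 12.53 in RS and 12.52 in the RE pool. Errfi1, a feedback inhibitor of the EGF receptor, passed the threshold besides Zbtb16 in RE against NV, with 1.09. These 2 were 14.3% of the list, beside 7.98% of all genes. Klf9, a factor induced by glucocorticoids, had 0.93 between RS and NV, and Ddit4, an inhibitor of mTOR signaling, had -0.75 between RE and RS.

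**Figure D3:**
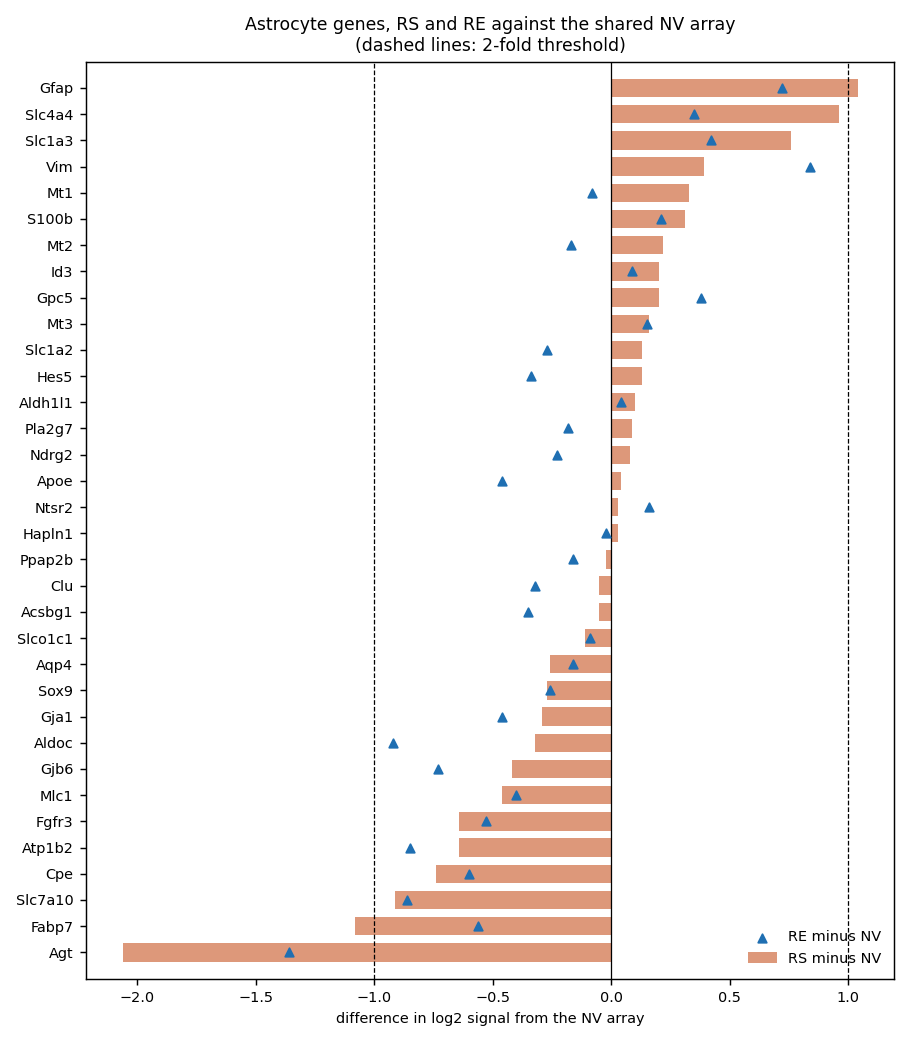
Difference in log2 signal from the NV array (horizontal axis) for each astrocyte gene, with bars for RS minus NV, triangles for RE minus NV and dashed lines at the 2-fold threshold. The bars run from -2.06 for Agt to 1.04 for Gfap, and both series share the NV array.

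Over the 34 genes, the pool given exercise EVs was the lowest of the 3 for 15 genes and the highest for 3, which were Vim, Gpc5 and Ntsr2. On the whole array RE was lowest for 37.5% and highest for 23.6% of genes. NV was highest for 16 astrocyte genes and RS for 15, beside 41.8% and 34.6% of all genes. Centring on all genes brought the astrocyte median of RE against RS to -0.06, and removal of the lowess trend brought it to -0.02. The counts of highest and lowest pools were not repeated with the trend removed.

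Further astrocyte genes held a few large differences. Of 39 genes measured outside the list above, 2 were higher and 3 lower by 2-fold in the RS pool, 12.8% of them beside 7.80% of all genes. Of the 39, 21 (53.8%) differed by less than 0.5, and their median was -0.01 between RS and NV. Slc25a18, a mitochondrial glutamate carrier, gave a log2 signal of 10.09 in the NV pool, 8.17 in RS and 8.51 in the RE pool. Chrdl1, a BMP antagonist that astrocytes secrete, had 7.48, 5.70 and 6.13, with RS below the background level. Etnppl, a phospho-lyase of phosphoethanolamine, had 8.59 in RS and 8.39 in RE, with differences from NV of -1.41 and -1.61. All 3 were lower in both restrained pools. The higher genes were Ranbp3l, with 7.37, 8.67 and 7.95, and Dio2, the deiodinase that activates thyroid hormone, with 9.58, 10.61 and 9.94. Dio2 was named after its value was seen. Between RE and RS none of the 39 reached 2-fold, where 1.16% of all genes did, and their median was -0.12.

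Agt belongs to a list drawn up for astrocytes outside the telencephalon, and several genes of this list were lower in RS. The list also holds regional transcription factors, such as Irx2 and Zic1, that are not specific to astrocytes. It shares Gbx2 and Zic1 with the list of thalamus and habenula genes. Of its 11 genes measured, 4 were lower and 0 higher by 2-fold, beside 4.29% of all genes lower. Agt is itself among the 4, so this count partly restates its value, as does the median of -0.84. The median was -0.96 over the 8 above background in some array, while Irx1, Irx5 and Gbx2 lay below that level in every array. Slc6a11, the GABA transporter GAT3, gave a log2 signal of 14.09 in the NV pool, 11.96 in RS and 12.15 in the RE pool, so that RS differed from NV by -2.13. Irx2, a homeobox gene of midbrain and hindbrain, had 6.32, 3.87 and 3.75, just above the background level in NV and below it in both restrained pools. Slc7a11, the cystine and glutamate antiporter, had 11.18, 10.12 and 10.89, so RE lay close to NV. Of 6 genes of telencephalic astrocytes 0 were higher and 0 lower, and their median was 0.20. The highest of them was Emx2, a forebrain homeobox gene, with 0.99, and Mfge8, which marks telencephalic astrocytes, had -0.92. Of 12 thalamus and habenula genes, 3 were lower and 1 was higher by 2-fold. Tcf7l2, a Wnt pathway factor of thalamic neurons, had 12.89 in the NV pool, 8.21 in RS and 8.54 in the RE pool, and Slc17a6, a vesicular glutamate transporter of subcortical neurons, had 12.00, 8.70 and 8.95. Over the 12 thalamus and habenula genes the median was -0.64, with 7 of them above the background level in some array, and Pou4f1 of the habenula had -3.24 whereas Prkcd of the thalamus had 1.98. The part of neighbouring tissue in the differences of Agt and Slc6a11 was not tested.

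Of 11 genes of potassium and GABA handling, 2 were lower and 0 higher in the RS pool, where 4.29% of all genes were lower and 3.52% higher. These were Slc6a11 and Kcnj16, which encodes the potassium channel subunit Kir5.1, with 10.96 in the NV pool, 9.12 in RS and 9.60 in the RE pool. Its partner Kcnj10, which encodes Kir4.1, the main potassium channel of astrocytes, had 11.39, 10.92 and 10.79. Kcnk1, another potassium channel gene, had 11.60, 12.52 and 12.33 and was higher in both restrained pools, below 2-fold. Of 17 genes of glycogen, lactate and lipid metabolism, Pygm, a glycogen phosphorylase, was lower with -1.60 and Abca1, which exports cholesterol to lipoproteins, was higher with 1.42. These were 11.8% of the 17, beside 7.80% of all genes. Neither list held a gene past 2-fold in RE against RS, where 1.16% of all genes passed.

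Genes of reactive astrocytes were mixed. Of 13 genes shared by different reactive states, which include Gfap and Vim, 2 were higher and 1 lower by 2-fold in RS than in NV. This was 23.1% of them, beside 7.80% of all genes, and their median was 0.46. Of the 13, 7 lay below the background level in every array, and the median of the other 6 was 0.18. The highest was Serpina3n, a protease inhibitor, with a log2 signal of 8.95 in the NV pool, 10.86 in RS and 10.21 in the RE pool, and RS minus NV was 1.91. Aspg, an asparaginase, had 7.46, 6.33 and 5.65 and was lower in both restrained pools. Of 13 genes listed for the neuroinflammation type, Ggta1, Ugt1a6a and C3 were not measured. Of the other 10, 0 were higher and 0 lower, and 4 lay above the background level. Of 12 genes of the ischemia type, Ptgs2, a prostaglandin synthase that hippocampal neurons also express, was higher, with 1.58 in RS minus NV. No other gene of that type passed, so the share was 8.3% beside 7.80% of all genes. Between RE and RS no gene of these 3 lists passed the threshold, where 1.16% of all genes did, and their medians were -0.24, -0.03 and -0.01. Of 12 genes of adult neural stem cells and radial glia, Fabp7 was the only one past 2-fold in RS against NV. The share was 8.3%, and the median was 0.00.

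**Figure D4:**
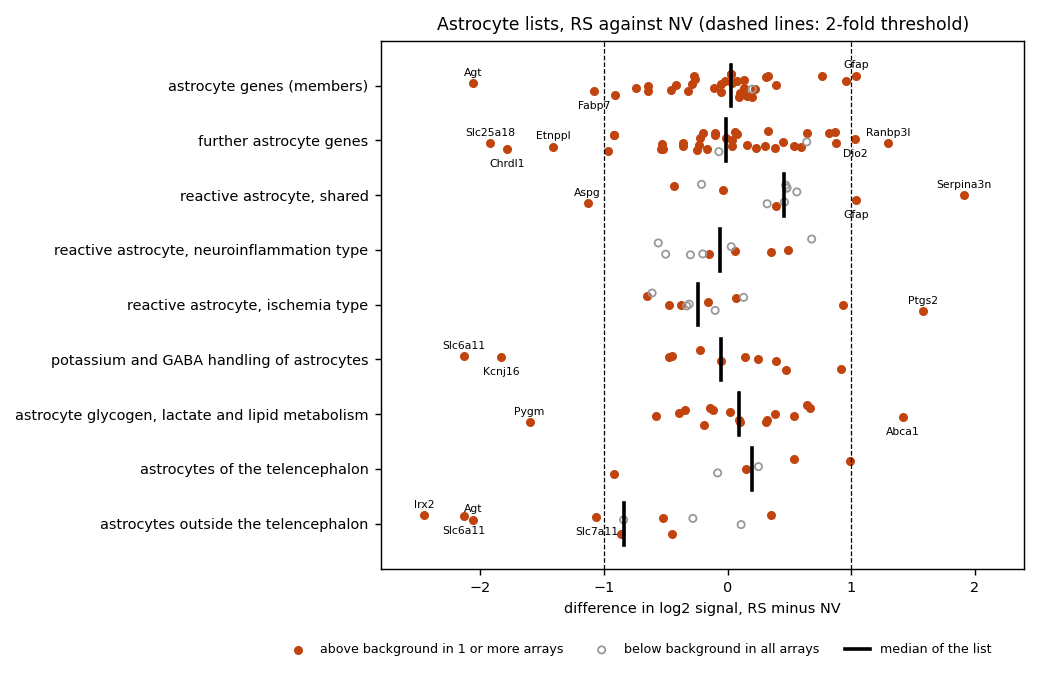
Difference in log2 signal between RS and NV (horizontal axis) for each gene of the astrocyte genes and 8 further astrocyte lists (rows), with the median of each list as a black bar and genes below background in all arrays as open points. The list of astrocytes outside the telencephalon, which includes Agt, has a median of -0.84. The medians of the other lists lie between -0.23 and 0.46. The latter is for shared reactive genes and comes to 0.18 over those above background.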

How the data were processed

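Hippocampal RNA of each group was pooled and hybridized to 1 Affymetrix whole-transcript array by the authors. The deposited values are log2 signals of 22205 probe sets. The Affymetrix Command Console software is named by the study. RMA and Affymetrix Power Tools stand in the submitters' processing notes without versions. The lowest value is 2.71 and the highest 19.9. How some exceed 16, in 7 astrocyte genes too, was not stated. The labels name ventral hippocampus, the study hippocampus.

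Symbols came from the platform annotation, with 19571 probe sets of 1 symbol and 2634 with none here. For 55 genes with several probe sets the highest mean over 3 arrays was used. Genes were compared as differences of 2 log2 values, with the 2-fold threshold of the study's methods. No test across samples is possible with 1 array per group, and array number limits the precision. The background level is the 95th percentile of chemosensory receptor genes. Every astrocyte gene was named, and in further lists up to 4 genes with the largest difference above background. Dcn and Dio2 were named outside this rule. The members and lists were chosen with earlier results of these data known. Alternatives were centring, removal of a lowess trend (span 0.3), a low-signal filter, the mean of probe sets, a 1.5-fold threshold and a list without genes abundant in other cells. Scripts were tested on simulated data. The tools were pandas 2.3.3, numpy 2.4.6, matplotlib 3.10.9 and statsmodels 0.14.6 under python 3.11.15, and promoters came from RefSeq (GRCm38.p6).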

Additional observations from a re-analysis of the deposited data

How the results depend on the processing

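All values rest on 1 array per pool, so no array could be left out. No paired analysis was possible because each group is 1 array. In RS against NV the median of the astrocyte genes, 0.03, became 0.04 when centred, -0.11 with the lowess trend removed and -0.03 without the 12 genes abundant in other cell types, so its sign is not settled. With the trend removed 0 genes were higher, as Gfap came to 0.92, and 3 were lower, as Slc7a10 came to -1.03. Without the 12 genes, Fabp7 among them, 1 was lower. In RE against RS the median was -0.06 centred, -0.02 with the trend removed, -0.14 with the low-signal filter and -0.19 without the 12 genes, and the same alternatives gave -0.14, -0.15, -0.23 and -0.27 in RE against NV. At 1.5-fold, 3 genes were higher and 6 lower for RS over NV, 1 and 2 for RE over RS, and 2 and 6 for RE over NV. These were 26.5%, 8.8% and 23.5% of the astrocyte genes, where 25.5%, 9.79% and 26.5% of all genes passed. In an alternative chosen after seeing the data, list medians for RS over NV were taken over genes above background in some array. The neuroinflammation type then went from -0.06 to 0.20, the shared reactive genes from 0.46 to 0.18, and stem cells and radial glia from 0.00 to -0.02. The mean of probe sets changed nothing, since each astrocyte gene has 1. No gene past 2-fold changed sign when centred or with the trend removed.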
